A study of Mus musculus with 2 samples.

Results

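The ligands and receptors of the tumour necrosis factor (TNF) superfamily were examined in primary mouse neonatal ventricular cardiomyocytes (mNVCM) that were exposed to doxorubicin (Dox) with or without a prior incubation with the secretome of human amniotic fluid stem cells. Members were taken by symbol. They are all genes whose current or older symbol starts with Tnfsf or Tnfrsf, together with *Tnf*, *Lta*, *Ltb*, *Ltbr*, *Fas*, *Fasl*, *Cd40*, *Cd40lg*, *Cd27*, *Cd70*, *Ngfr* and *Eda2r*, at probe sets that the array's annotation ties to 1 gene. The rule found 42 of 18193 genes and 68 of 45101 probe sets. Of these, 13 genes code for ligands and 26 for receptors. The other 3 were taken through an older or shared symbol and code for neither, namely *Psmg2*, a chaperone of proteasome assembly, *Pglyrp1*, a peptidoglycan recognition protein, and *Tnfsf13os*, a transcript from the strand opposite *Tnfsf13*.

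The 2 conditions were measured on 1 Affymetrix array each. For hAFS-CM_Hypo + Dox, primary cultures from C57BL6/J mice 2 days after birth were kept in low-serum medium for 1 h, incubated for 3 h with medium conditioned by human amniotic fluid stem cells under hypoxia, and then exposed to 1 μM Dox. For Dox, cells of the same strain and age went through the same steps without the conditioned medium, so both conditions carry Dox and neither is untreated. The deposited labels give 6 h of Dox for hAFS-CM_Hypo + Dox and 21 h for Dox, whereas the study's methods give 6 h for both. If the labels hold, the incubation and the hours of Dox cannot be told apart in any value below. With 1 array per condition there is no replicate check, no standard error and no test, and each value describes these arrays alone.

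Ligands of this superfamily are trimeric proteins, most of them made by immune cells as membrane proteins. Their receptors fall into a group with a death domain inside the cell, which can recruit the adaptors FADD or TRADD and start caspases, and a group that binds TRAF adaptors and leads to NF-κB. The decoy receptors, a group apart, bind ligand without passing on a signal of their own. In the heart, TNF is known both for triggering cardiomyocyte death and, through NF-κB, for inducing genes that keep cells alive.

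The deposited values are log2 expression values made by RMA. The difference between the arrays is given as a log2 ratio, hAFS-CM_Hypo + Dox over Dox. Each gene is read at its brightest probe set, the one with the highest mean over both arrays. The median of all values was 5.10 and their 25th percentile 3.80. These serve as marks of low signal, since the values come without detection calls. Different probe sets of the same gene differed in log2 ratio with an SD of 0.22 over 9010 genes, called the probe set SD below, which is used as a yardstick within these arrays and holds no variation between cultures. Pearson's r between the arrays was 0.995 across probe sets, which are not independent replicates. All 6 cardiomyocyte markers had high values, 11.88 to 14.99 for hAFS-CM_Hypo + Dox and 12.09 to 15.05 for Dox, with log2 ratios from -0.21 to -0.02, and they are the defining genes of the cell type on the labels.

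Several receptors were higher with hAFS-CM_Hypo before Dox. Of the 13 ligands, 10 lay within the probe set SD, as did 12586 of all 18193 genes. At the brightest probe set no member reached the 2-fold difference that the study used as its threshold, in either direction, beside 0.506% of all genes higher and 0.214% lower by 2-fold. The study's methods state no such choice of probe set. *Tnfrsf22*, *Cd40* and *Tnfrsf11b* each had another probe set higher by 2-fold, beside 0.632% of all genes with any such probe set. At the brightest probe set, *Tnfrsf23*, *Tnfrsf22*, *Tnfrsf21*, *Tnfrsf1a* and *Fas*, all receptors, were higher by 1.5-fold or more. They make 5 of 42 members (11.9%) beside 2.32% of all genes. The 1.5-fold threshold was chosen after the data were seen, and *Fas* (1.51-fold) lies close to it. *Tnfrsf21* falls short of it at its other probe set, and *Tnfrsf22* and *Tnfrsf23* are close relatives whose probes may not be separate. *Pglyrp1* alone was lower by 1.5-fold or more, beside 1.52% of all genes. The log2 ratio exceeded the probe set SD upwards in 14 members (33.3%, with 16.4% of all genes) and downwards in 6 members (14.3%, with 14.4% of all genes). The median log2 ratio was 0.11 over the 42 members, 0.22 over the 26 receptors, 0.07 over the 13 ligands and 0.01 over all genes. The median was 0.13 for the receptors without probe sets of less specific types. It was 0.23 for the members, and 0.14 for the ligands, when only genes that reached the median of all values on either array were kept.

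**Figure D1:**
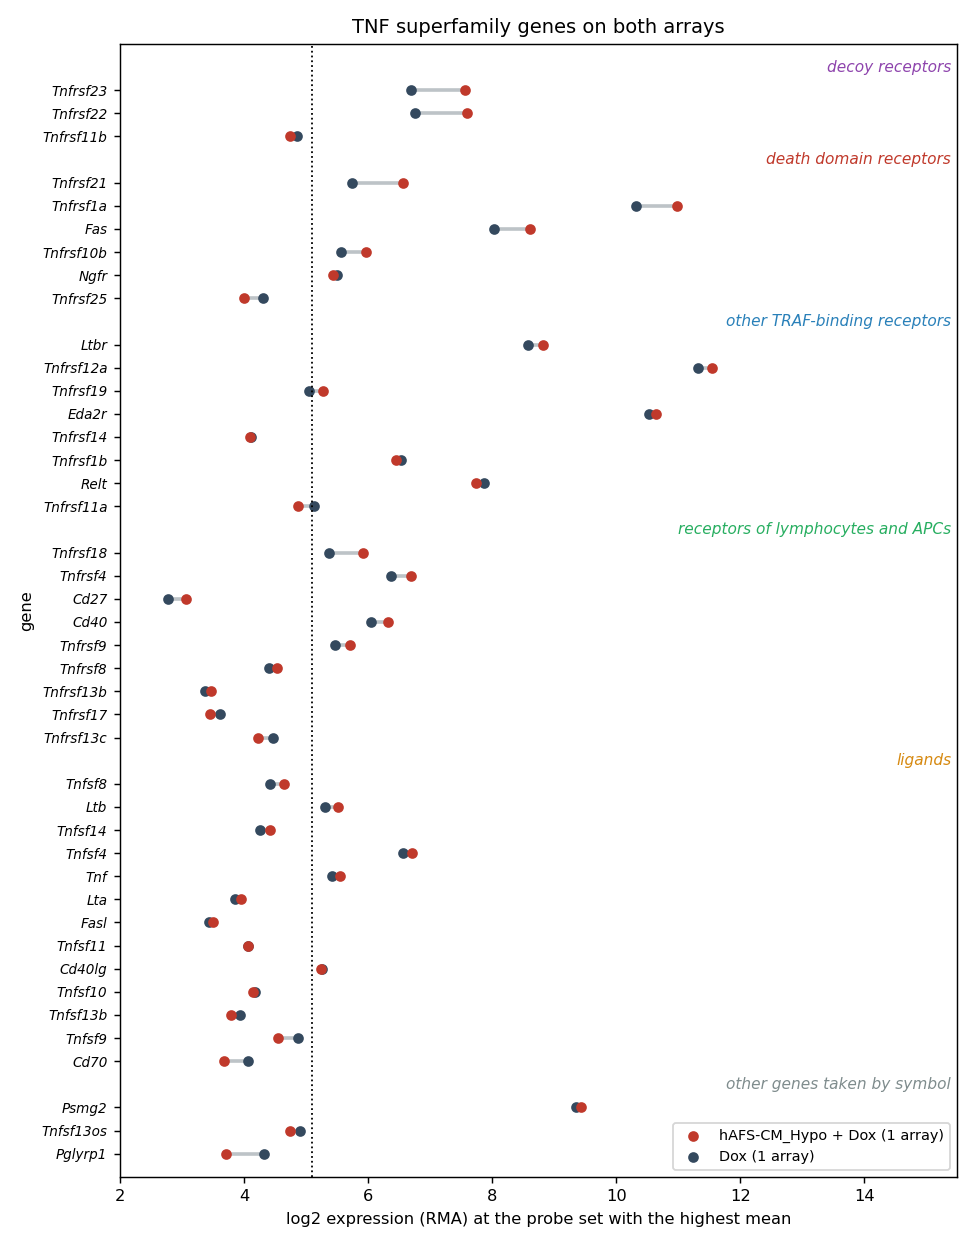
Log2 expression (RMA) of the 42 genes on the hAFS-CM_Hypo + Dox array (red points) and the Dox array (dark points), 1 array each, at the brightest probe set of the gene, grouped by role (APCs, antigen-presenting cells). The dotted vertical line stands at the overall median, 5.10, and 4 of 13 ligands lie above it on both arrays, beside 16 of 26 receptors. Only the 2 points of a gene can be compared, not the levels of different genes.

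Of all members, the decoy receptors *Tnfrsf23* and *Tnfrsf22* had the largest log2 ratios at the brightest probe set, with *Tnfrsf21* (0.82) close behind. *Tnfrsf23* and *Tnfrsf22* are mouse genes whose products bind TRAIL, the ligand encoded by *Tnfsf10*, without a working death domain. *Tnfrsf23* had a log2 value of 7.57 for hAFS-CM_Hypo + Dox and 6.69 for Dox, and its log2 ratio of 0.88 ranked 130 of 18193 genes. *Tnfrsf22* had 7.59 for hAFS-CM_Hypo + Dox and 6.76 for Dox, and its log2 ratio of 0.83 ranked 159. Its other probe sets had 7.42 against 6.31 (1.11) and 5.25 against 4.72 (0.53), so all 3 were higher and 1 of them passed 2-fold. The genes lie side by side on chromosome 7, and a probe set annotated to both, which the rule leaves out, had 9.32 for hAFS-CM_Hypo + Dox and 8.46 for Dox (0.86). They are close relatives in sequence, and how far probes of one also bind transcripts of the other was not tested. *Tnfrsf26*, another decoy gene of the list, was not analysed here.

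*Tnfrsf11b* codes for osteoprotegerin, a secreted decoy that binds RANKL and also TRAIL. At its brightest probe set it had 4.74 for hAFS-CM_Hypo + Dox and 4.85 for Dox (-0.11). At its other probe set it had 4.41 for hAFS-CM_Hypo + Dox and 3.03 for Dox (1.38). The probe sets thus disagree in sign, both lie below the median of all values on both arrays, and the Dox value of the second also lies below the 25th percentile. No direction is given for this gene.

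The death domain receptors were higher in 4 of 6 cases by more than the probe set SD (16.4% of all genes were), with a median log2 ratio of 0.50. *Tnfrsf21* codes for death receptor 6, *Tnfrsf1a* for the main TNF receptor of most tissues, *Fas* for the receptor of FAS ligand and *Tnfrsf10b* for the only mouse TRAIL receptor with a death domain. *Tnfrsf21* had 6.56 for hAFS-CM_Hypo + Dox and 5.74 for Dox (0.82). The 0.82 comes from a probe set of a type that can match several transcripts. The gene's other probe set, not of such a type, gave 5.88 against 5.66, a log2 ratio of 0.23. The size of the difference thus depends on the probe set while its direction does not.

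*Tnfrsf1a* had 10.98 for hAFS-CM_Hypo + Dox and 10.32 for Dox (0.66, or 1.58-fold, rank 303). *Fas* had 8.61 for hAFS-CM_Hypo + Dox and 8.02 for Dox (0.59, or 1.51-fold, rank 409). Both genes have 1 probe set, with values well above the median of all values on both arrays. *Tnfrsf10b* had 5.96 for hAFS-CM_Hypo + Dox and 5.56 for Dox (0.40), and 0.29 at its other probe set.

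The remaining death domain receptors were not higher. *Ngfr*, the low-affinity neurotrophin receptor, had -0.07, with 0.19 and -0.09 at its other probe sets. *Tnfrsf25*, a receptor known from T cells, had a log2 ratio of -0.30 (1.23-fold lower, with 4.30 for Dox) and lay below the median of all values on both arrays. *Fas* and *Tnfrsf10b* are also known as targets of p53, which Dox activates. The p53 target list held 13 measured genes of 15, of which 5 lay above and 1 below 0 by more than the probe set SD (38.5% and 7.69%, with 16.4% and 14.4% of all genes). Their median log2 ratio was 0.19. Its summed log2 level was 139.6 for hAFS-CM_Hypo + Dox and 138.3 for Dox, and the part of p53 in the death receptor values was not tested.

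**Figure D2:**
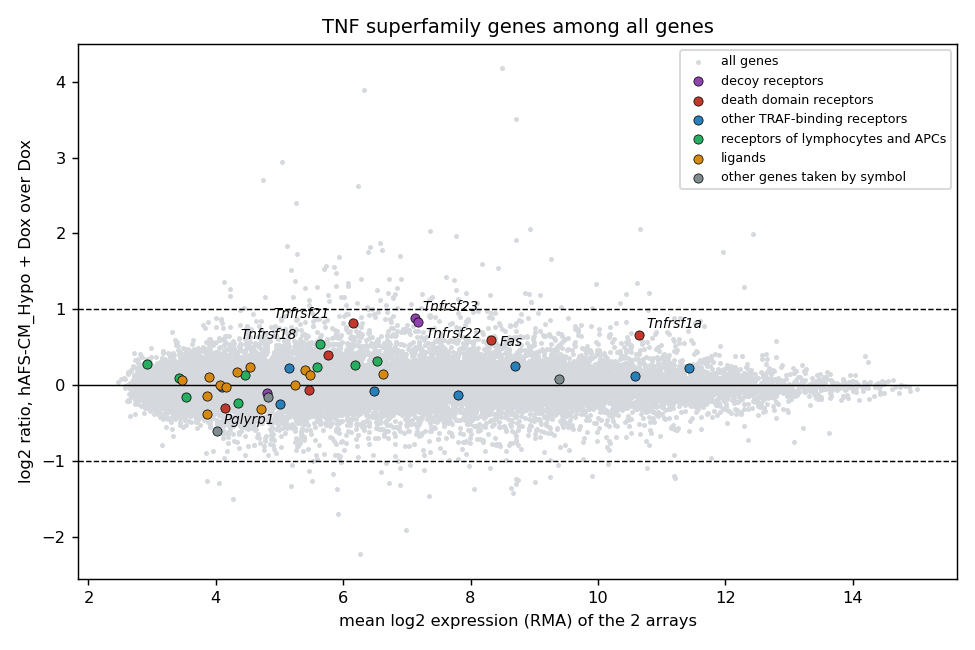
Log2 ratio, hAFS-CM_Hypo + Dox over Dox, against the mean log2 expression of the 2 arrays for 18193 genes (grey) and the TNF superfamily genes (coloured by role), with genes past 0.5 in size named. The dashed lines mark 2-fold, which no member crossed at its brightest probe set. *Tnfrsf1a* stands at the highest mean level among the named genes, with a ratio of 0.66.

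The stretches before the starts of *Tnfrsf1a*, *Fas* and *Tnfrsf21*, the death domain receptors past 1.5-fold, are shown because motifs of signal-dependent factors could be looked up in them. The window of *Tnfrsf23*, with no match, lies inside the span of its gene and is not shown, and *Tnfrsf22* had no window. The windows come from RefSeq (GRCm38.p6), run 5′ to 3′ on the strand of the gene and end at the base before the gene, and capitals mark a motif. The motifs, read on both strands, were TTCNNNGAA (bound by STAT factors), TGANTCA (bound by AP-1) and the NF-κB consensus, and no 2 of them overlapped in these windows. The window of *Tnfrsf1a*, at chr6:125349473-125349722 on the plus strand, holds 1 TTCNNNGAA. The window of *Fas*, at chr19:34290409-34290646 on the plus strand, holds 1 TGANTCA and 1 TTCNNNGAA, and has 238 bases because the last 12 of its 250 lie inside the gene. That of *Tnfrsf21*, at chr17:43016305-43016554 on the plus strand, holds no match of the 3 motifs.
Tnfrsf1a: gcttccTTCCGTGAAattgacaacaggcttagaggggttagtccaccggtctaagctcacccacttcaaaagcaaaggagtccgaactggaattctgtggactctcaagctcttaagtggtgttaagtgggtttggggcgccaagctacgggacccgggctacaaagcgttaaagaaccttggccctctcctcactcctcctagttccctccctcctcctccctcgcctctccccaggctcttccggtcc
Fas: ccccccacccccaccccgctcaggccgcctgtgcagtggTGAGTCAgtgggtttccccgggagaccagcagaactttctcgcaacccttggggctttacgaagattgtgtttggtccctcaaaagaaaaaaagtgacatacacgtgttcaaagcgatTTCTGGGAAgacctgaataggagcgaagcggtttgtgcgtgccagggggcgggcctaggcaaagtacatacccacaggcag
Tnfrsf21: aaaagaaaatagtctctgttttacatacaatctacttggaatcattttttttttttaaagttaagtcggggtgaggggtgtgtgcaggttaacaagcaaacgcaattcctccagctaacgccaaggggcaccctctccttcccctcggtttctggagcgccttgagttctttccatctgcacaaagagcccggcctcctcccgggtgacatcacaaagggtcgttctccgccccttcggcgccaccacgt

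Over the 250 bases before each start, 32 of the 42 members had a window, and with their alternative starts 36 windows. TTCNNNGAA was found in 8 of these 32 genes, namely *Fas*, *Lta*, *Ltb*, *Tnfrsf18*, *Tnfrsf1a*, *Tnfrsf1b*, *Tnfrsf25* and *Tnfrsf9*, beside 8.13% of the 27025 genes with a window and 7.02% of all 32851 windows. These 8 genes had log2 ratios from -0.30 (*Tnfrsf25*) to 0.66 (*Tnfrsf1a*), so genes with and without a difference carry it. TGANTCA was found in 5 members, *Fas*, *Tnfrsf8*, *Tnfrsf9*, *Tnfsf13b* and *Tnfsf14*, beside 7.82% of all genes and 6.75% of all windows. The NF-κB consensus was found in 5 members, *Ltb*, *Pglyrp1*, *Tnfrsf25*, *Tnfrsf8* and *Tnfrsf9*, beside 8.23% of all genes and 7.25% of all windows. A match is a description of the letters and no evidence of binding in these cells.

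Receptors that bind TRAF adaptors and lie outside the lymphocyte group were near 0 as a group, with a median log2 ratio of 0.05 over 8 genes. *Ltbr*, the lymphotoxin beta receptor, which activates the alternative NF-κB pathway, had 8.82 for hAFS-CM_Hypo + Dox and 8.57 for Dox (0.25). *Tnfrsf12a*, the receptor of TWEAK, had 11.55 for hAFS-CM_Hypo + Dox and 11.32 for Dox (0.23), and 0.24 at its other probe set. These lie just past the probe set SD.

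*Tnfrsf1b*, the second TNF receptor, which lacks a death domain, did not move with *Tnfrsf1a*. It had 6.44 for hAFS-CM_Hypo + Dox and 6.52 for Dox (-0.08), and -0.14 at its other probe set. *Tnfrsf11a*, which codes for RANK, the receptor of RANKL, had 4.87 for hAFS-CM_Hypo + Dox and 5.13 for Dox (-0.25) but 0.13 at its other probe set. The other 4 receptors of the group, *Tnfrsf19*, *Eda2r*, *Relt* and *Tnfrsf14*, had log2 ratios from -0.13 (*Relt*) to 0.22 (*Tnfrsf19*). *Eda2r*, the receptor of an ectodysplasin isoform and a known p53 target, had 10.65 for hAFS-CM_Hypo + Dox and 10.53 for Dox (0.12).

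Receptors known from lymphocytes and antigen-presenting cells had a median log2 ratio of 0.24 over 9 genes, of which 5 lay above and 1 below 0 by more than the probe set SD (55.6% and 11.1%, with 16.4% and 14.4% of all genes). *Tnfrsf18* codes for GITR, a co-stimulatory receptor of T cells, and had 5.91 for hAFS-CM_Hypo + Dox and 5.37 for Dox (0.54). *Tnfrsf4*, which codes for the T cell receptor OX40 and lies next to *Tnfrsf18* on chromosome 4, had 6.70 for hAFS-CM_Hypo + Dox and 6.37 for Dox (0.32). *Tnfrsf9*, which codes for the co-stimulatory receptor 4-1BB, had 5.71 for hAFS-CM_Hypo + Dox and 5.47 for Dox (0.24). Its other probe sets, at low signal, gave 0.31 and -0.43, so they differ in sign.

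*Cd40*, a receptor of antigen-presenting cells that induces NF-κB, was higher at all 3 of its probe sets. They had 6.32 against 6.05 (0.27), 6.26 against 5.45 (0.81) and 5.83 against 4.79 (1.03), with hAFS-CM_Hypo + Dox before Dox in each pair. The brightest probe set gave the smallest of these ratios, and all 3 are of the types that can match several transcripts. *Tnfrsf13c*, the BAFF receptor of B cells, had 4.22 for hAFS-CM_Hypo + Dox and 4.46 for Dox (-0.24). The other 4 genes of the group, *Cd27*, *Tnfrsf8*, *Tnfrsf13b* and *Tnfrsf17*, had log2 ratios from -0.16 (*Tnfrsf17*) to 0.28 (*Cd27*), all with both arrays below the median of all values.

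Markers of the immune cells that carry these receptors were measured on the same arrays. In a culture, fewer cells of a type and less RNA per cell cannot be told apart. Of 6 macrophage markers, 4 were higher and 1 was lower by more than the probe set SD (66.7% and 16.7%, with 16.4% and 14.4% of all genes), with a summed log2 level of 41.7 for hAFS-CM_Hypo + Dox and 40.3 for Dox. *Cd14* had 0.80. *Ptprc*, which codes for CD45, had 0.48 and *Csf1r* 0.33, with values down to -0.09 and -0.14 at other probe sets, whereas *Itgam*, an integrin of myeloid cells, had -0.58. The summed log2 level was 29.8 on each array for the 6 T cell markers. It was 12.7 for hAFS-CM_Hypo + Dox and 12.9 for Dox over 3 of 4 B cell markers, and 12.6 against 13.7 over 3 of 4 natural killer cell markers. By more than the probe set SD, 2 T cell markers were higher and 1 was lower. So were 1 B cell marker and all 3 natural killer cell markers lower (with 16.4% of all genes higher and 14.4% lower). Both arrays lay below the median of all values for 3 T cell, 3 B cell and 2 natural killer cell markers. RMA values have no 0, so no marker can be called absent, and the part of these cells in the receptor values was not tested.

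**Figure D3:**
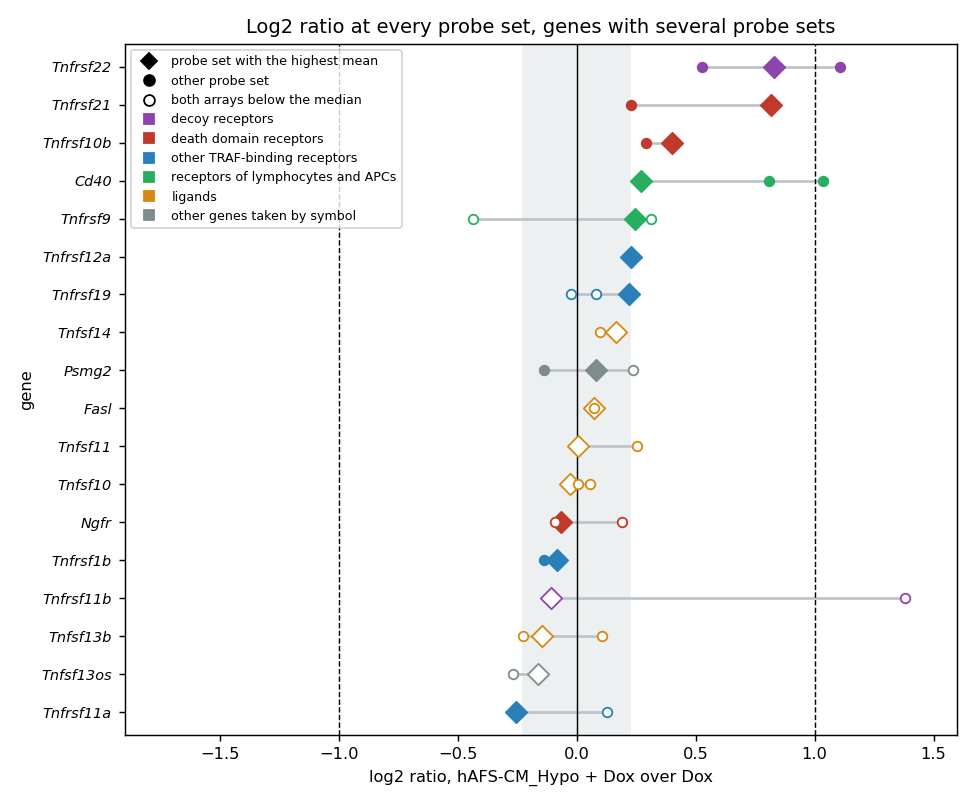
Log2 ratio, hAFS-CM_Hypo + Dox over Dox, at every probe set of the 18 genes with several probe sets, with diamonds for the brightest probe set, circles for the others and open symbols where both arrays lie below the median of all values. The shaded band is the probe set SD, 0.22, and the dashed lines mark 2-fold. *Tnfrsf22*, *Cd40* and *Tnfrsf11b* each have 1 probe set past 2-fold.

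How far probe sets of one gene gave the same picture could be read for 18 members. All probe sets lay above 0 for 8 of them (44.4%, with 23.1% of 9010 genes). All lay below 0 for 2 of the 18, beside 1927 of the 9010 genes, and on both sides of 0 for 8, beside 5000. The 8 genes above 0 were *Tnfrsf22*, *Tnfrsf21*, *Tnfrsf10b*, *Cd40*, *Tnfrsf12a*, *Tnfsf14*, *Fasl* and *Tnfsf11*, of which the 3 ligands were at low signal. The probe sets of a gene lay more than 0.5 apart in 5 members (27.8%) and in 19.5% of the 9010 genes. These shares depend on the number of probe sets per gene, for which members and all genes were not matched. Counting a gene when any of its probe sets was higher by 2-fold or more gave 3 members, *Tnfrsf22*, *Cd40* and *Tnfrsf11b*, beside 0.632% of all genes.

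The ligands showed small differences at mostly low signal. Of 13 measured ligands of 17, 1 lay above 0 and 2 lay below it by more than the probe set SD (with 16.4% and 14.4% of all genes), and 9 lay below the median of all values on both arrays. *Tnf*, the founding ligand of the superfamily, had 5.55 for hAFS-CM_Hypo + Dox and 5.41 for Dox (0.14). *Fasl*, the ligand of FAS, had 3.50 for hAFS-CM_Hypo + Dox and 3.43 for Dox (0.07), both below the 25th percentile of all values. *Tnfsf10*, which codes for TRAIL, had 4.14 for hAFS-CM_Hypo + Dox and 4.17 for Dox (-0.03), with 0.06 and 0.01 at its other probe sets.

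*Tnfsf11*, which codes for RANKL, the ligand of osteoclast formation, had 4.06 on each array (0.01) and 0.25 at its other probe set, at low signal. *Tnfsf8*, the ligand of CD30, had 4.65 for hAFS-CM_Hypo + Dox and 4.41 for Dox (0.23). The share of lower ligands is near that of all genes. *Tnfsf9*, the ligand of 4-1BB, had 4.55 for hAFS-CM_Hypo + Dox and 4.87 for Dox (-0.31), and *Cd70*, the ligand of CD27, had 3.68 for hAFS-CM_Hypo + Dox and 4.06 for Dox (-0.38). The genes lie next to each other on chromosome 17, with *Tnfsf14* (0.17) on the other side of *Cd70*. The other 6 ligands, *Lta*, *Ltb*, *Tnfsf4*, *Cd40lg*, *Tnfsf13b* and *Tnfsf14*, had log2 ratios from -0.15 (*Tnfsf13b*) to 0.20 (*Ltb*).

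Of the genes taken by symbol alone, *Pglyrp1* had 3.71 for hAFS-CM_Hypo + Dox and 4.31 for Dox (-0.61), with both values below the median of all values. *Psmg2* had 0.08 and *Tnfsf13os* -0.16. Probe sets annotated to *Tnfsf12* or *Tnfsf13* together with their fusion transcript gave 0.29 and -0.16 and were not counted.

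Receptors and their ligands were set side by side in 21 known pairs of 13 ligands and 18 receptors, which share genes and so are not independent. The list is not complete. For example, *Lta* (0.10) with *Tnfrsf1b* (-0.08) was not among the pairs. The log2 ratio of the receptor lay above that of its ligand in 13 pairs and below it in 8. The gap exceeded 0.22 in 10 pairs with the receptor above and in 1 pair, *Tnfrsf11a* and *Tnfsf11*, with the receptor below. As a yardstick 0.22 describes single log2 ratios, and it is narrow for a gap, which holds the spread of 2 ratios. No share over other gene pairs was counted beside these numbers. Most of the 10 gaps with the receptor above rest on a ligand at low signal. In these pairs every ligand except *Tnf* and *Cd40lg* lay below the median of all values on both arrays. The gap of 0.66 between *Cd27* and *Cd70* has low signal on both sides. *Cd27* had 3.06 for hAFS-CM_Hypo + Dox and 2.78 for Dox, and both genes lay below the median of all values on both arrays. The widest gap was 0.91, between *Tnfrsf23* and *Tnfsf10*. For TRAIL, the death domain receptor *Tnfrsf10b* (0.40) and the decoys *Tnfrsf22* (0.83) and *Tnfrsf23* (0.88) were all higher. The ligand had -0.03, at low signal. For TNF, the death domain receptor (0.66) and the receptor without one (-0.08) differed by more than the probe set SD.

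**Figure D4:**
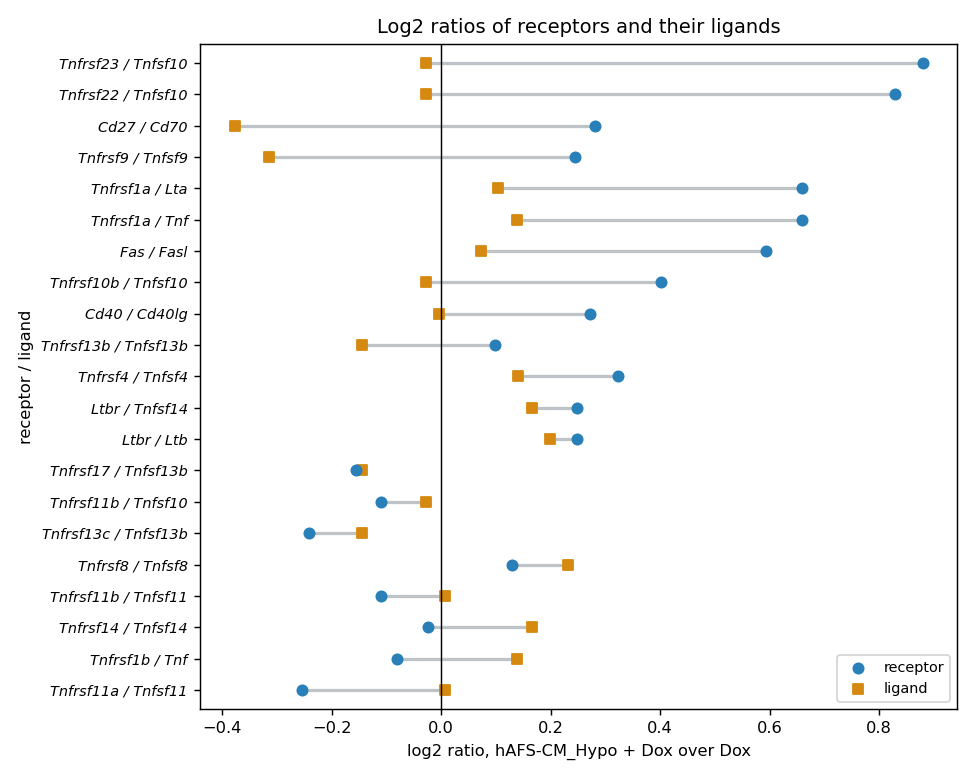
Log2 ratio, hAFS-CM_Hypo + Dox over Dox, of receptors (blue circles) and their ligands (orange squares) in 21 pairs, at the brightest probe set, ordered by the gap between them. The receptor lies to the right of its ligand in 13 pairs, by as much as 0.91 for *Tnfrsf23* and *Tnfsf10*, a ligand at low signal.

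In the downstream list, of genes linked to signalling by these receptors, 17 were higher by more than the probe set SD, 16 lay within it and 1 was lower. The list holds adaptors, caspase-8 and its regulators, kinases and NF-κB subunits. It also holds genes that limit the signal, such as *Tnfaip3*, *Tnip1* and *Nfkbia*, and *Adam17*, which cuts proteins at the cell surface. The counts therefore do not say whether signalling was higher. Of the 38 genes on the list, 34 were measured. At the brightest probe set none reached 2-fold, beside 0.506% of all genes higher and 0.214% lower. By 1.5-fold or more, 2 were higher (5.88%, with 2.32% of all genes). The shares beyond the probe set SD were 50.0% higher and 2.94% lower, with 16.4% and 14.4% of all genes. The median log2 ratio was 0.22, and 29 of the 34 genes lay above 0, which holds for 51.2% of all genes.

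*Birc3* and *Relb* had the largest ratios of the list. *Birc3*, an inhibitor of apoptosis that modifies RIPK1, had 7.23 for hAFS-CM_Hypo + Dox and 6.44 for Dox (0.79), but -0.19 at its other probe set. *Relb*, a subunit of the alternative NF-κB pathway, had 6.47 for hAFS-CM_Hypo + Dox and 5.76 for Dox (0.72). *Nfkb2*, its partner, had 8.71 for hAFS-CM_Hypo + Dox and 8.23 for Dox (0.48), with 0.21 at its other probe set.

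The next in size were *Tnip1*, *Tnfaip3* and *Traf4*. *Tnip1*, a partner of A20, had 8.83 for hAFS-CM_Hypo + Dox and 8.36 for Dox (0.47). *Tnfaip3*, which codes for A20, had 8.05 for hAFS-CM_Hypo + Dox and 7.58 for Dox (0.47), with 0.04 at its other probe set. *Traf4*, an adaptor, had 9.58 for hAFS-CM_Hypo + Dox and 9.12 for Dox (0.45), but -0.26 at its other probe set. *Traf5*, another adaptor, was the gene that was lower (-0.23). Among the adaptors of death receptors, *Fadd* had 0.09 and *Tradd* 0.17, and *Casp8*, the initiator caspase, had 0.21. The 5 probe sets of *Cflar*, which codes for the caspase-8 inhibitor FLIP, ran from -1.11 to 0.21. *Tradd*, *Fadd*, *Casp8* and *Cflar* were chosen after their values were seen.

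**Figure D5:**
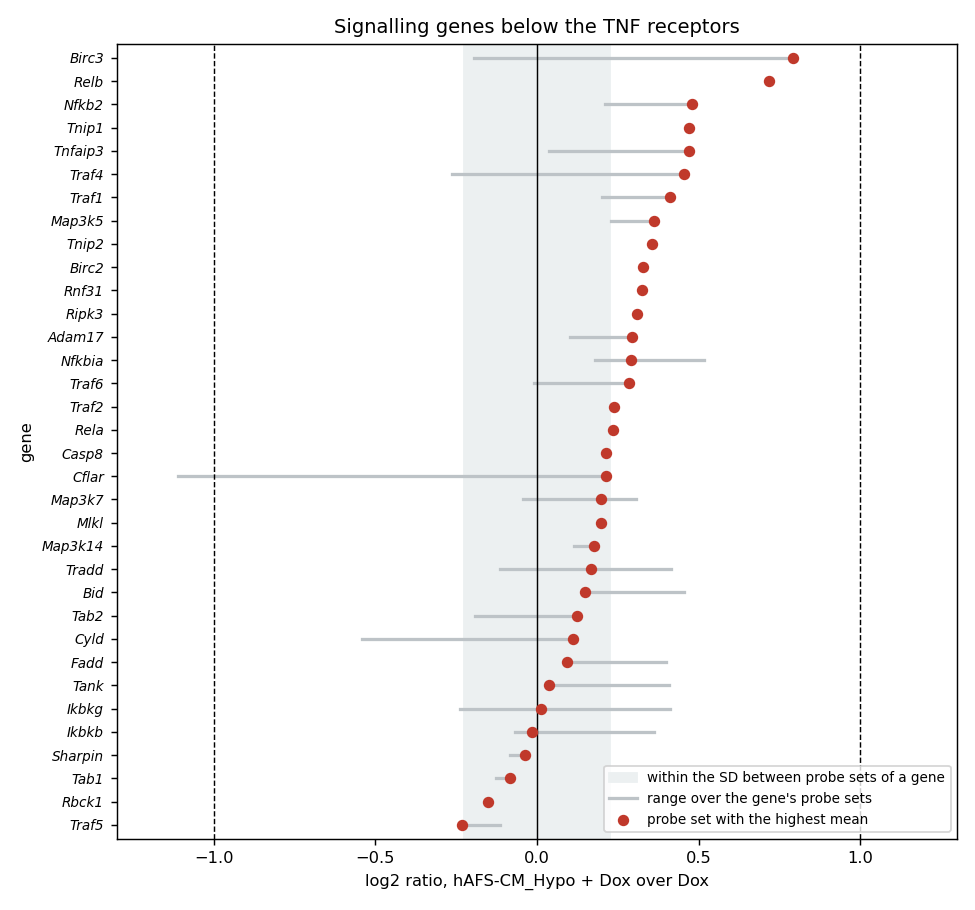
Log2 ratio, hAFS-CM_Hypo + Dox over Dox, of the 34 measured genes of the downstream list (red points, brightest probe set), with the range over all probe sets of the gene (grey lines). The shaded band is the probe set SD, 0.22, and the dashed lines mark 2-fold. *Birc3* (0.79) and *Relb* (0.72) lie farthest to the right, and 17 genes lie to the right of the band.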

How the data were processed

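Gene expression of mNVCM was measured on 1 Affymetrix mouse genome array for hAFS-CM_Hypo + Dox and 1 for Dox. The deposited log2 values were made by the authors with RMA and quantile normalization and were used as they stand. The software and the probe set definitions are not stated by the paper, the labels or the files, and that the scale is log2 was read from the range of the values (2.37 to 15.05). Symbols of the platform annotation were brought up to date by Entrez ID from a RefSeq table (GRCm38.p6), which matched 34754 of 34958 probe sets with 1 gene. Older symbols were matched with their capitals as written.

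Each gene was read at its brightest probe set, by the mean over both arrays. Members above or below a threshold were counted beside all genes. With 1 array per condition no test was made, and precision is limited by the number of arrays. Members and lists were chosen with earlier results of these data known. Named in full were members whose ratio reached the SD between probe sets, or with a probe set past 1.5-fold, and whose higher array reached the 25th percentile, and 10 well-known ligands and receptors in any case. Of the downstream list, the 6 largest ratios were named. *Eda2r*, *Ngfr* and the genes taken by symbol alone were added. Marker lists covered cardiomyocytes, fibroblasts, endothelium, macrophages and lymphocytes. As alternatives, low signal was filtered, ratios were centred or corrected by lowess (span 0.3), other probe sets were chosen, and 1.5-fold and 3-fold were used as thresholds. The counting steps were tested on simulated data. The software was pandas 2.3.3 and numpy 2.4.6 under Python 3.11.15, with matplotlib 3.10.9 for plots and statsmodels 0.14.6 for lowess.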

Additional observations from a re-analysis of the deposited data

How the results depend on the processing

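At a threshold of 1.5-fold in place of 2-fold, 5 members were higher and 1 was lower. Without the probe sets of less specific types, 1 member was higher by 2-fold (*Tnfrsf22*), and with the probe set of the largest change 3 were. At 1.5-fold, a threshold chosen after seeing the data, the count of higher members ran from 4 to 7, and lowess correction gave 4 because *Fas* came to 0.58. No member was lower by 1.5-fold with a filter at the median of all values, which leaves out *Pglyrp1*. The median log2 ratio stayed above 0 under every alternative, from 0.10 to 0.23 for the members, 0.13 to 0.26 for the receptors, 0.06 to 0.14 for the ligands and 0.21 to 0.33 for the downstream list. Of 161 alternative values of 25 named members, 150 moved by less than the SD between probe sets. Many of these could hardly move, so the count says little about robustness. The filters keep a ratio as it is, and centring shifted the ratios by -0.0017. Members with 1 probe set have no other to choose. In 6 of the named members a value moved by more. Larger moves came from the choice of probe set: *Tnfrsf21* 0.23 to 0.52, *Tnfrsf22* 1.11, *Cd40* 0.70 to 1.03, *Tnfrsf11b* 0.63 to 1.38, *Tnfsf11* 0.25 and *Tnfrsf9* -0.43. The filter at the median left no value for 10 named members, the filter at the 25th percentile for 1, and leaving out less specific probe sets for 3. No paired analysis was possible because each condition has 1 array. Signal near the background limits what can be read for most ligands, and noise of these hybridisations was not separated from differences between cultures.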

Other observations

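Of the 5 fibroblast markers, 2 lay above and 3 below 0 by more than the probe set SD (with 16.4% and 14.4% of all genes). *Pdgfra*, a growth factor receptor, had 8.30 for hAFS-CM_Hypo + Dox and 7.51 for Dox, and *Ddr2*, a collagen receptor, had 7.53 for hAFS-CM_Hypo + Dox and 8.28 for Dox. The log2 ratio at other probe sets was as low in size as -0.05 for each. The 5 endothelial markers had log2 ratios from -0.22 to 0.19. The members next to each other on a chromosome had like ratios in some pairs, such as *Tnfrsf22* (0.83) and *Tnfrsf23* (0.88), and unlike ones in others, such as *Cd70* (-0.38) and *Tnfsf14* (0.17).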
